A study of Mus musculus with 18 samples.

Results

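The tumor necrosis factor (TNF) superfamily genes of mouse liver are described here: 46 of the 55487 genes in the count table, taken by symbol alone and by no measured value. They were 16 ligands (Tnf, Lta, Ltb, Fasl, Cd70 and the numbered Tnfsf genes), 24 receptors (the numbered Tnfrsf genes with Ltbr, Fas, Cd27 and Eda2r) and 6 adaptors (Traf1 to Traf6). All 46 are protein-coding genes in GENCODE M21. TNF superfamily ligands are trimeric proteins on or shed from immune and stromal cells. Their receptors recruit TRAF adaptors, which lead to NF-kappaB and MAP kinase signaling, and the receptors with a death domain can also start apoptosis or necroptosis. In liver, TNF receptor 1 and Fas are known for hepatocyte death and the lymphotoxin pathway for signals between lymphocytes and parenchyma.

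The livers came from 18 male C57BL/6J mice, bought at 7 weeks of age, with 6 mice in each of 3 groups. All mice received an adeno-associated virus 1 week before the diets began, so the controls carry a vector too. CON-GFP mice received GFP and a purified control diet. FPC-GFP mice received GFP and the FPC diet, which is rich in fructose, palmitate and cholesterol, with sugar in the drinking water. FPC-LIPA mice received human LIPA, the gene of lysosomal acid lipase, and the FPC diet. The diets lasted 16 weeks, and the promoter of both vectors (TBG) is active in hepatocytes. The labels number the mice separately in each group, so the libraries count as separate animals. The library called FPC-LIPA mouse 37 here has 37b in its title and 37 in its description, and what the letter means is not given.

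Libraries held 16632146 to 37739301 counts, of which 4152 to 20800, or 0.0250% to 0.0679%, were in the 46 genes. Hepatocyte markers (10 genes led by Alb and Apoa1) summed to 50205 to 103459 CPM (counts scaled to a common library total) in the 18 libraries, as liver tissue gives. Libraries of some mice stood apart. Ribosomal protein genes took 6.21%, 7.93% and 7.86% of counts in FPC-LIPA mice 36, 37 and 39 and 1.32% to 2.72% in the other 15 libraries. FPC-LIPA mouse 37 also had the highest Ptprc level, 76.5 CPM. The human LIPA transgene has no row in this mouse table, and mouse Lipa, which it does not check, differed by a log2 fold change of -0.16 ± 0.18 (SE) between FPC-LIPA and FPC-GFP (edgeR adjusted p = 0.513). These are bulk livers, so a change in the number of cells of a type and a change in RNA per cell cannot be told apart.

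Levels of the members were compared per kb of exon, since longer genes collect more counts. In CON-GFP liver, the lymphotoxin beta receptor gene Ltbr was the highest, at 40.1 ± 5.12 CPM per kb (SD, n = 6). Tnfrsf1a, which encodes TNF receptor 1, followed at 26.5 ± 5.86, and the ranges of the 2 genes did not overlap. Fas came next at 11.9 ± 2.97 CPM per kb, and its range overlapped that of Traf4 at 11.1 ± 1.80, as did the range of Traf4 that of Tnfrsf1b at 11.0 ± 3.24. Tnfrsf12a, the receptor of TWEAK, stood at 5.55 ± 1.08 CPM per kb. The TWEAK gene itself, Tnfsf12, was the highest ligand at 3.87 ± 0.485. In FPC-GFP liver the ranges of Ltbr, Tnfrsf1a and Tnfrsf12a, at means of 41.6, 38.6 and 18.7 CPM per kb, overlapped each neighbor in the order. In FPC-LIPA liver Fas (21.03 ± 12.3) and Tnfrsf1a (19.1 ± 9.71) followed Ltbr, again with overlapping ranges.

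The receptors carried most of these counts. The summed level of the 24 receptors was 222 to 303 CPM over the CON-GFP livers (median 266), 255 to 516 CPM over the FPC-GFP livers (median 288) and 235 to 282 CPM over the FPC-LIPA livers (median 266). The 16 ligands together summed to 9.17 to 13.6 CPM in CON-GFP, 11.1 to 15.9 in FPC-GFP and 14.4 to 21.7 in FPC-LIPA. Only 2 ligands, Tnfsf12 and Tnfsf10, had a mean of 1 CPM or more in CON-GFP and FPC-GFP, and 3, with Ltb, in FPC-LIPA. The 6 adaptors summed to 62.6 to 89.2 CPM in CON-GFP, 98.7 to 120 in FPC-GFP and 43.2 to 97.2 in FPC-LIPA. Adaptor sums were thus higher in each FPC-GFP liver than in each CON-GFP and FPC-LIPA liver.

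**Figure D1:**
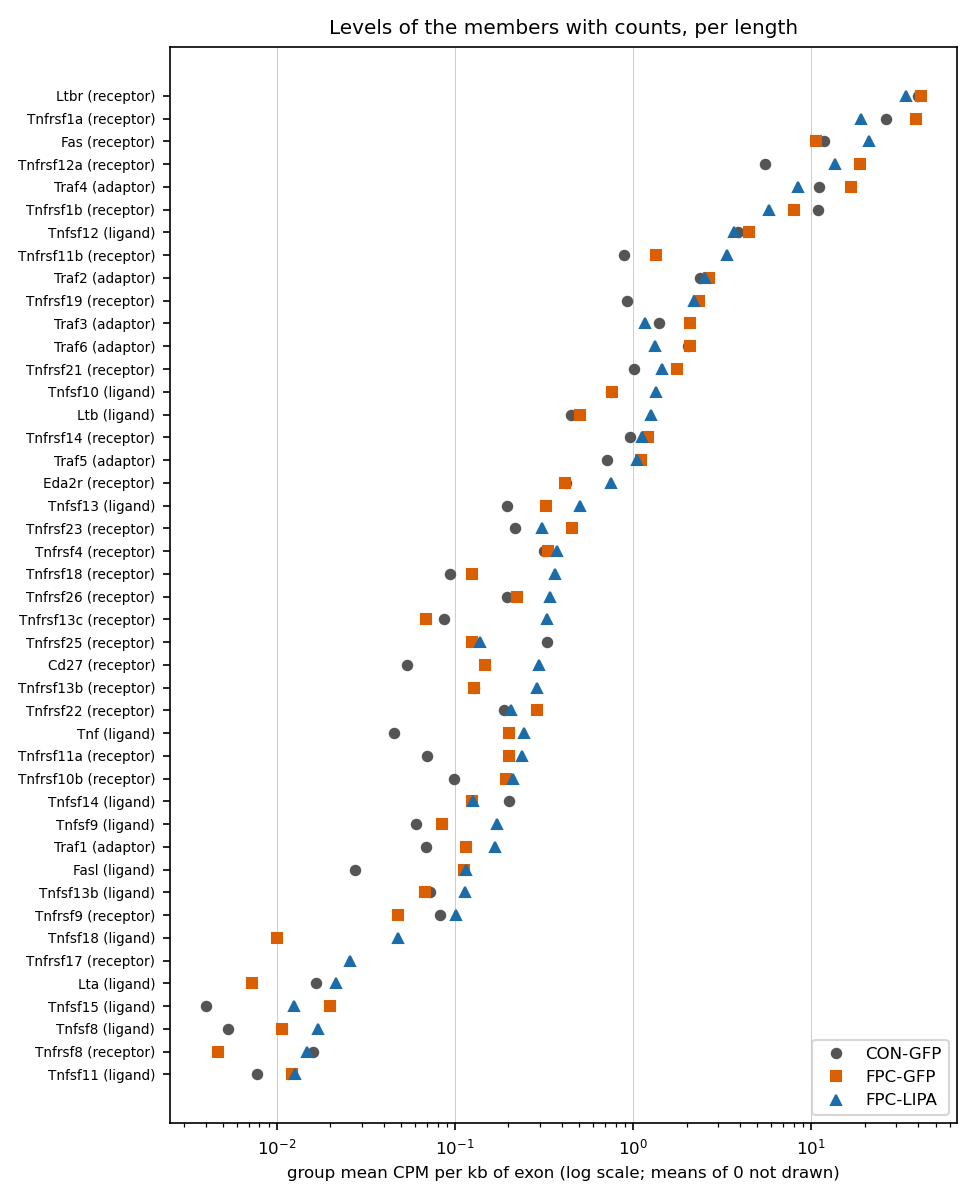
Group mean level of each member with any count, in CPM per kb of exon on a log axis, with 1 marker per group and n = 6 libraries each. Ltbr and Tnfrsf1a lie at the top in CON-GFP and FPC-GFP and Ltbr and Fas in FPC-LIPA, where Fas has a mean of 21.03 and Tnfrsf1a of 19.1 CPM per kb, and most ligands lie below 1 CPM per kb.

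Which members could be tested depended on their level. Genes with too few counts were set aside by edgeR's filterByExpr, which left 30 members for the diet comparison (FPC-GFP against CON-GFP), 31 for the LIPA comparison (FPC-LIPA against FPC-GFP) and 30 for FPC-LIPA against CON-GFP. A gene was called differentially expressed (DE) with a change of at least 2-fold and an adjusted p under 0.05 by edgeR's quasi-likelihood test over all genes. A filter of this kind can pass a gene through the group in which it is high. Of the 46 members, 29 were tested in all 3 comparisons, Cd27, Tnfrsf13c and Tnfrsf25 in some, and 14 in none. The 14 were 10 ligands (Cd70, Fasl, Lta, Tnf, Tnfsf4, Tnfsf8, Tnfsf9, Tnfsf11, Tnfsf15 and Tnfsf18) and 4 receptors (Tnfrsf8, Tnfrsf9, Tnfrsf17 and Tnfrsf18). Cd70 and Tnfsf4 had no count in any library.

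The diet comparison asks what the FPC diet did to these genes in livers with the GFP vector. Tnfrsf12a, Tnfrsf11a, Tnfrsf19 and Tnfrsf23 were DE and higher in FPC-GFP livers, 4 of 30 members tested, against 4.76% of all 14307 genes tested. Tnfrsf25 was the 1 member DE and lower, against 2.44% of all genes. At any fold change, 9 members were higher with an adjusted p under 0.05 (background 12.9%) and 1 was lower (background 10.9%). The 5 of these under 2-fold were Tnfrsf10b, Tnfrsf21, Traf1, Traf3 and Traf4. The median log2 fold change of the 30 members was 0.26 and that of all genes 0.01, and 25 of the 30 members were higher. No ligand passed the test in this comparison by edgeR. The 6 tested had a median of 0.07 and a lowest adjusted p of 0.242, and 0 had an unadjusted p under 0.05 by edgeR's or DESeq2's test.

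The LIPA comparison asks what the LIPA vector added on the FPC diet. Ltb, Tnfrsf11b and Tnfrsf13c were DE and higher in FPC-LIPA livers, 3 of 31 members tested, where 10.3% of all 14620 genes were DE and higher. Of these members, Tnfrsf13c passed the filter in this comparison alone, mainly through the FPC-LIPA livers in which it was high. Tnfrsf1a was the 1 member DE and lower, where 1.11% of all genes were. At any fold change, 5 members were higher (background 14.4%), with Fas and Tnfsf10 added, and 2 were lower (background 6.87%), with Traf4 added. The median log2 fold change was 0.08 for the members and 0.04 for all genes, and 16 members were higher and 15 lower. Shares near the background, as for the members that were higher, are no result about the family.

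FPC-LIPA against CON-GFP covers diet and vector together, and shares its libraries with both other comparisons. Tnfrsf11b, Tnfrsf11a, Ltb, Tnfrsf12a, Traf1 and Tnfrsf19 were DE and higher, 6 of 30 members tested, against 11.8% of all 14433 genes. No member was DE and lower, against 3.25% of all genes, by edgeR's or DESeq2's test. At any fold change the same 6 members were higher (background 14.7%) and 1 member, Tnfrsf1b, was lower (background 8.20%). At an unadjusted p under 0.05 by edgeR, 14 members were higher (background 22.5%) and 2 lower (background 15.6%). The median log2 fold change was 0.52 for the members and 0.04 for all genes.

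**Figure D2:**
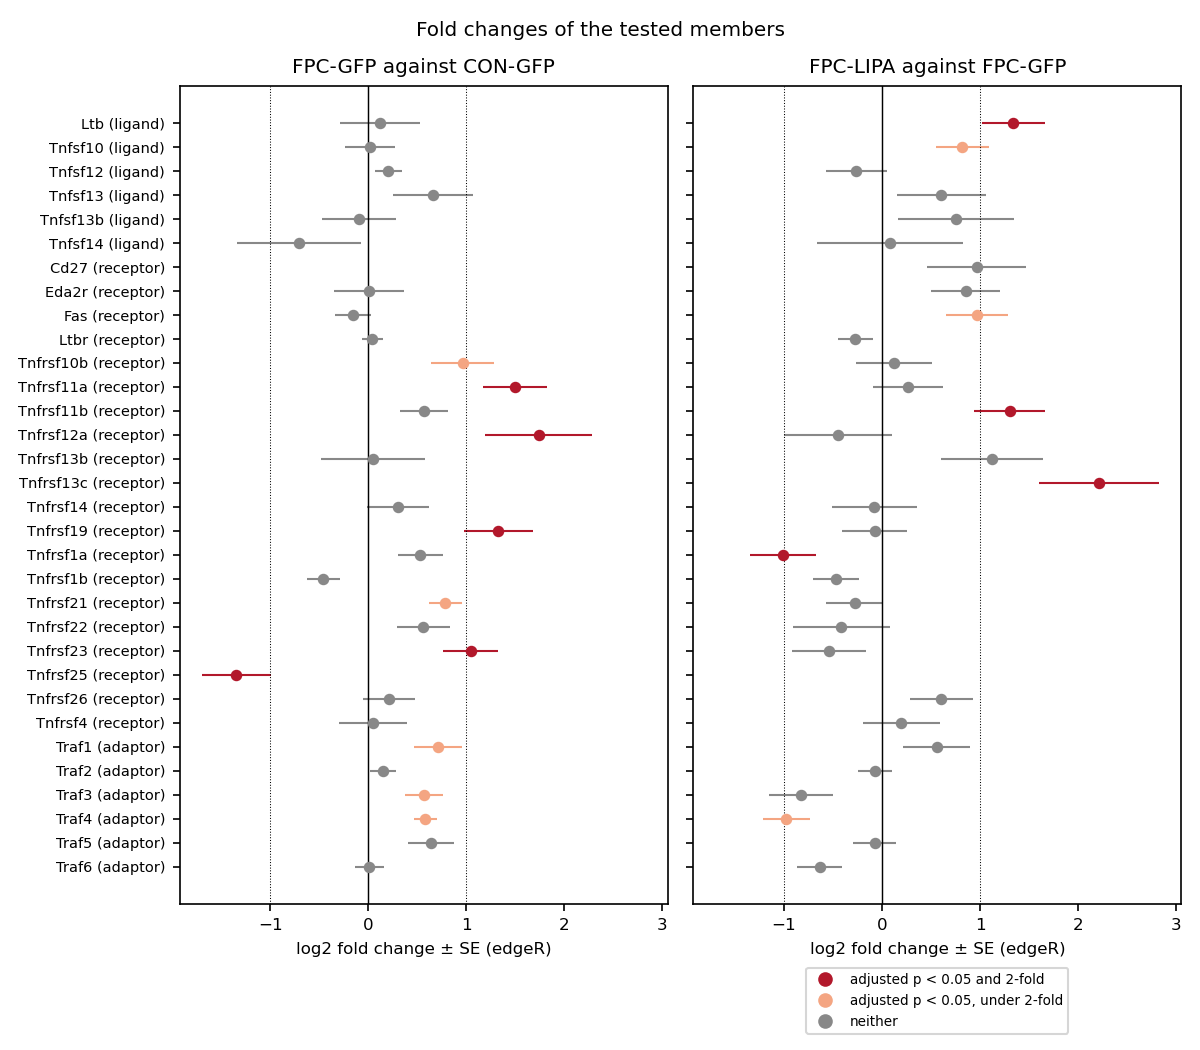
Log2 fold change of each tested member with its standard error from edgeR, in the diet comparison on the left (30 members) and the LIPA comparison on the right (31 members), ordered as ligands, receptors and adaptors. Dotted lines mark 2-fold. The members beyond them with an adjusted p under 0.05 are 5 on the left and 4 on the right.

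Among the ligands, Tnf was near the limit of detection. It encodes the founding cytokine of the family, made mainly by macrophages. Its counts were 0, 1, 0, 6, 4 and 1 in the CON-GFP libraries, 3, 21, 13, 15, 5 and 4 in FPC-GFP and 9, 33, 18, 2, 5 and 6 in FPC-LIPA. In CPM, CON-GFP livers ran from 0 to 0.236 with a median of 0.0485, FPC-GFP from 0.0935 to 0.637 with a median of 0.323, and FPC-LIPA from 0.0608 to 0.814 with a median of 0.340. All 3 groups overlapped. Tnf was below the filter of the 3 comparisons. With no filter, its log2 fold change was 2.08 ± 0.70 for the diet (edgeR adjusted p = 0.0573) and 0.24 ± 0.60 for LIPA (adjusted p = 0.815), neither past the threshold, and 2.31 ± 0.80 for FPC-LIPA against CON-GFP (adjusted p = 0.0623). Tnf passed the filter of the last comparison without FPC-LIPA 36, 37 and 39 and was then DE and higher, at 2.83 ± 0.73 (adjusted p = 0.0180). With a smaller group the filter asks for counts in fewer libraries. Tnf passed it through FPC-LIPA 31, 33 and 34, at 9, 33 and 18 counts, the group in which it was high. No conclusion is drawn from that call.

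Ltb, which encodes lymphotoxin beta, the membrane anchor of the ligand of Ltbr on lymphocytes, was the ligand whose groups separated. Ltb stood at 0.129 to 1.10 CPM across CON-GFP livers (median 0.751), at 0.280 to 1.17 across FPC-GFP livers (median 0.825) and at 1.43 to 2.42 across FPC-LIPA livers (median 1.89). Each of the 6 FPC-LIPA livers was above each FPC-GFP and each CON-GFP liver. The log2 fold change was 1.34 ± 0.32 in the LIPA comparison (edgeR adjusted p = 0.0180), 0.12 ± 0.41 for the diet (adjusted p = 0.851) and 1.45 ± 0.38 for FPC-LIPA against CON-GFP (adjusted p = 0.0148). Ltb counts are low, between 2 and 39 per library in the GFP groups. Without FPC-LIPA 36, 37 and 39 the log2 fold change in the LIPA comparison was 1.54 ± 0.36, with an adjusted p of 0.0610, so the call was lost while the difference was no smaller. Its receptor Ltbr stood at 80.8 to 109.9 CPM on the control diet (median 93.9), at 86.2 to 110.2 in FPC-GFP mice (median 98.8) and at 46.4 to 96.3 in FPC-LIPA mice (median 87.7), and the groups overlapped. The low FPC-LIPA value is that of mouse 37, and the log2 fold change for LIPA was -0.27 ± 0.18 (edgeR adjusted p = 0.267).

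The genes of Ltb, Tnf and Lta are neighbors on chromosome 17, with Ltb at chr17:35194439-35196320 on the plus strand and Tnf at chr17:35199381-35202007 on the minus strand (GRCm38). The 250 bases before the start sites of these neighbors are shown because Ltb separated the groups and Tnf did not. The RefSeq start of Ltb lies inside the gene as GENCODE gives it. The sequences are those of RefSeq for GRCm38.p6, 5′ to 3′ along each gene, at chr17:35194257-35194506 for Ltb and chr17:35202008-35202257 for Tnf. Capitals mark matches to motifs searched on both strands: the NF-kappaB consensus, the AP-1 site TGANTCA and the TATA box TATAAA.
Ltb: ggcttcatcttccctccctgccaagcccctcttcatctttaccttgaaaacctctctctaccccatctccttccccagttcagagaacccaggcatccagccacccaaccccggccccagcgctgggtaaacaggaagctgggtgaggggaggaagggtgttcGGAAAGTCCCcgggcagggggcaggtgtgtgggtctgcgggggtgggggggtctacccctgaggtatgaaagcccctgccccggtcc
Tnf: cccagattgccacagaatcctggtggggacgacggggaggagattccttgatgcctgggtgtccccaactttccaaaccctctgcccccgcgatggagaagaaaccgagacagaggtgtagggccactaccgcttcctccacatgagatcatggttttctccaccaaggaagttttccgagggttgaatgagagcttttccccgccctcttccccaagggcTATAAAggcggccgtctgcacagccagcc
In Ltb the capitals are an NF-kappaB match at 87 to 78 bases before the start site, and in Tnf a TATA box at 29 to 24 bases before it. Of all 32851 promoter windows of this length, 3.90% held an NF-kappaB match, 6.75% an AP-1 match and 12.4% the TATA box. Of the 46 members, 38 had a window, and 4 of them (Ltb, Tnfrsf8, Tnfrsf9 and Traf3) held an NF-kappaB match, 6 an AP-1 match and 7 a TATA box. A match is a run of letters and not a shown binding site.

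Tnfsf10 encodes TRAIL, a ligand of death receptors. Levels of Tnfsf10 spanned 1.83 to 6.07 CPM with a median of 3.86 on the control diet, 2.49 to 5.38 with a median of 4.09 in FPC-GFP mice, and 3.38 to 10.6 with a median of 7.43 in FPC-LIPA mice. The 3 highest livers of all were FPC-LIPA 36, 37 and 39, and 5 of 6 FPC-LIPA livers were above each FPC-GFP liver. For LIPA the log2 fold change was 0.82 ± 0.27 (edgeR adjusted p = 0.0437), and 0.37 ± 0.27 (adjusted p = 0.491) without those 3 libraries. Leaving out 1 liver lost the call in 10 of 12 fits, at adjusted p of up to 0.108. The diet gave 0.02 ± 0.25 (adjusted p = 0.962).

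The other tested ligands were Tnfsf12, Tnfsf13, Tnfsf13b and Tnfsf14, and none passed the test. Tnfsf12 and Tnfsf13 (encoding TWEAK and APRIL) share exon sequence with the readthrough gene Tnfsfm13, over 731 of 1515 and 983 of 1637 bases, so their counts are uncertain. Tnfsf13b, which encodes the B cell factor BAFF, differed by a log2 fold change of 0.76 ± 0.59 for LIPA (edgeR adjusted p = 0.347). Tnfsf18, ligand of the T cell receptor GITR, had 0 counts in the 6 CON-GFP livers, 4 in the 6 FPC-GFP livers and 16 in the 6 FPC-LIPA livers. Fasl, the ligand of Fas, had 8, 36 and 36 counts over the groups in the same order. Tnfsf11, which encodes RANKL, had 2, 4 and 3 counts.

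Tnfrsf12a, which encodes the TWEAK receptor Fn14 and is known to be induced in injured tissue, had the largest diet log2 fold change among the tested members. Tnfrsf12a stood at 8.86 to 14.7 CPM across CON-GFP livers (median 10.3), at 11.9 to 138 across FPC-GFP livers (median 15.1) and at 18.0 to 42.8 across FPC-LIPA livers (median 24.8). FPC-GFP mouse 11 alone stood at 138 CPM, and the other 5 FPC-GFP livers at 11.9 to 22.7. The log2 fold change for the diet was 1.74 ± 0.54 (edgeR adjusted p = 0.0310), and without that mouse 0.56 ± 0.17 (adjusted p = 0.0313), which is past the p threshold and under 2-fold. The call was also lost without CON-GFP 2, 3, 6, 7 or 8, at adjusted p of 0.0514 to 0.0583. In FPC-LIPA livers, all 6 were above each CON-GFP liver, with a log2 fold change of 1.26 ± 0.21 against CON-GFP (adjusted p = 0.000726). Against FPC-GFP the log2 fold change was -0.45 ± 0.55 (adjusted p = 0.555), and it turned to 0.74 ± 0.23 (adjusted p = 0.0571) without FPC-GFP mouse 11.

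Tnfrsf11a encodes RANK, the receptor of RANKL, which myeloid cells carry. Levels of Tnfrsf11a spanned 0.308 to 0.619 CPM with a median of 0.398 on the control diet, 0.561 to 1.85 with a median of 1.19 in FPC-GFP mice, and 0.794 to 2.05 with a median of 1.45 in FPC-LIPA mice. On the FPC diet, 5 of 6 GFP livers and all 6 LIPA livers were above each CON-GFP liver. Its diet log2 fold change was 1.499 ± 0.32 (edgeR adjusted p = 0.00482), and it was DE under each of the 20 alternative settings that tested it. The filter of at least 1 CPM in 6 libraries left it untested. FPC-LIPA against CON-GFP gave 1.75 ± 0.34 (adjusted p = 0.00270), and LIPA against GFP on the diet 0.27 ± 0.36 (adjusted p = 0.589). The windows before Tnfrsf12a and Tnfrsf11a are shown as those of the pair of receptors with the largest diet log2 fold changes, at chr17:23677450-23677699 on the minus strand and chr1:105780473-105780722 on the plus strand (RefSeq, GRCm38.p6).
Tnfrsf12a: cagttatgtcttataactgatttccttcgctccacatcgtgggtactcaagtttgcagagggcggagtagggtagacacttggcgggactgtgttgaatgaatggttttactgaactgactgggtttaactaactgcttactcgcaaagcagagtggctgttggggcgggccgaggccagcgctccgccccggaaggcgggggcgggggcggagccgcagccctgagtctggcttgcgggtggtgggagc
Tnfrsf11a: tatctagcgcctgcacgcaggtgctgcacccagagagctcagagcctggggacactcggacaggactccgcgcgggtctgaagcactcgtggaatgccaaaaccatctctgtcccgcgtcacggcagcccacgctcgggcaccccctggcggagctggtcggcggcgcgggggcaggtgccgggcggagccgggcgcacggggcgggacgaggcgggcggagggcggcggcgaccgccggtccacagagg
Neither window held a match to any of the 3 motifs, so no letters are in capitals.

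Tnfrsf11b encodes osteoprotegerin, a soluble decoy receptor of RANKL and TRAIL. Tnfrsf11b stood at 1.30 to 3.86 CPM across CON-GFP livers (median 2.45), at 2.67 to 4.82 across FPC-GFP livers (median 3.71) and at 3.95 to 23.7 across FPC-LIPA livers (median 6.93). In FPC-LIPA all 6 livers were above each CON-GFP liver and 5 of 6 above each FPC-GFP liver, with mouse 37 the highest. The log2 fold change for LIPA was 1.31 ± 0.36 (edgeR adjusted p = 0.0261), and 0.54 ± 0.22 (adjusted p = 0.220) without FPC-LIPA 36, 37 and 39. It fell to 0.79 (adjusted p = 0.0438) without mouse 37 alone, and the call was also lost when FPC-GFP 13, 16, 20 or mouse 36 was left out, at adjusted p of 0.0517 to 0.0577. Against CON-GFP it was 1.84 ± 0.40 (adjusted p = 0.00472), and 1.11 ± 0.31 (adjusted p = 0.0267) without the same 3 libraries. Stellate cell and fibroblast markers (8 genes led by Dcn and Col3a1) summed to 1082 CPM in FPC-LIPA mouse 37 and to 313 to 491 CPM in the other 5 FPC-LIPA livers. Of these 8 markers, 3 were higher for LIPA by the fitted fold change, 1 of them DE, and the median log2 fold change was -0.16. Their part in the result was not tested.

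Tnfrsf19 encodes TROY, an orphan receptor known from epithelial progenitors. Levels of Tnfrsf19 spanned 1.51 to 5.56 CPM with a median of 4.73 on the control diet, 2.96 to 17.2 with a median of 11.5 in FPC-GFP mice, and 7.18 to 16.1 with a median of 9.28 in FPC-LIPA mice. In FPC-GFP 5 of 6 livers were above each CON-GFP liver, and the exception was mouse 11. Tnfrsf19 gave log2 fold changes of 1.33 ± 0.35 for the diet (edgeR adjusted p = 0.0146) and -0.07 ± 0.33 for LIPA (adjusted p = 0.882). The diet call held under 20 of 21 alternative settings. It was lost among the libraries with sheet numbers 55 to 68 (the number after S in their descriptions), at an edgeR adjusted p of 0.0610. All 6 FPC-LIPA livers were above each CON-GFP liver, at 1.23 ± 0.29 (adjusted p = 0.00774).

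Tnfrsf23 encodes a TRAIL decoy receptor of the mouse. Tnfrsf23 stood at 0.504 to 1.34 CPM across CON-GFP livers (median 0.809), at 1.28 to 2.49 across FPC-GFP livers (median 1.70) and at 0.365 to 1.97 across FPC-LIPA livers (median 1.29). The diet log2 fold change was 1.05 ± 0.28 (edgeR adjusted p = 0.0150), and 5 of 6 FPC-GFP livers were above each CON-GFP liver. Without CON-GFP 1, 2 or 7 or FPC-GFP 19 it was 0.92 to 0.97, under 2-fold. Tnfrsf23 lies beside its close relatives Tnfrsf22 and Tnfrsf26 on chromosome 7 and shares 164 exon bases with an antisense gene, so reads could have been split among them. Tnfrsf22 and Tnfrsf26 gave diet log2 fold changes of 0.56 ± 0.27 (adjusted p = 0.138) and 0.21 ± 0.26 (adjusted p = 0.576).

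Tnfrsf25 encodes death receptor 3, found mainly on T cells. Levels of Tnfrsf25 spanned 0.433 to 1.29 CPM with a median of 0.588 on the control diet, 0.150 to 0.406 with a median of 0.275 in FPC-GFP mice, and 0 to 0.599 with a median of 0.308 in FPC-LIPA mice. All 6 FPC-GFP livers were below each CON-GFP liver, at counts of 4 to 13 against 11 to 26. The diet log2 fold change was -1.34 ± 0.35 (edgeR adjusted p = 0.0140), and FPC-LIPA against CON-GFP gave -1.19 ± 0.59 (adjusted p = 0.149). T cell markers (10 genes led by Cd4 and Lck) summed to 4.48 to 6.70 CPM in CON-GFP, 2.65 to 5.98 in FPC-GFP and 4.92 to 12.4 in FPC-LIPA. Of the 6 T cell markers tested for the diet, 1 was DE and lower. It was Cd4, at means of 2.13 CPM in CON-GFP and 0.523 in FPC-GFP. By the fitted fold change 3 of the 6 were higher for the diet, and the median log2 fold change was -0.08. The part of these markers in the result was not tested.

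**Figure D3:**
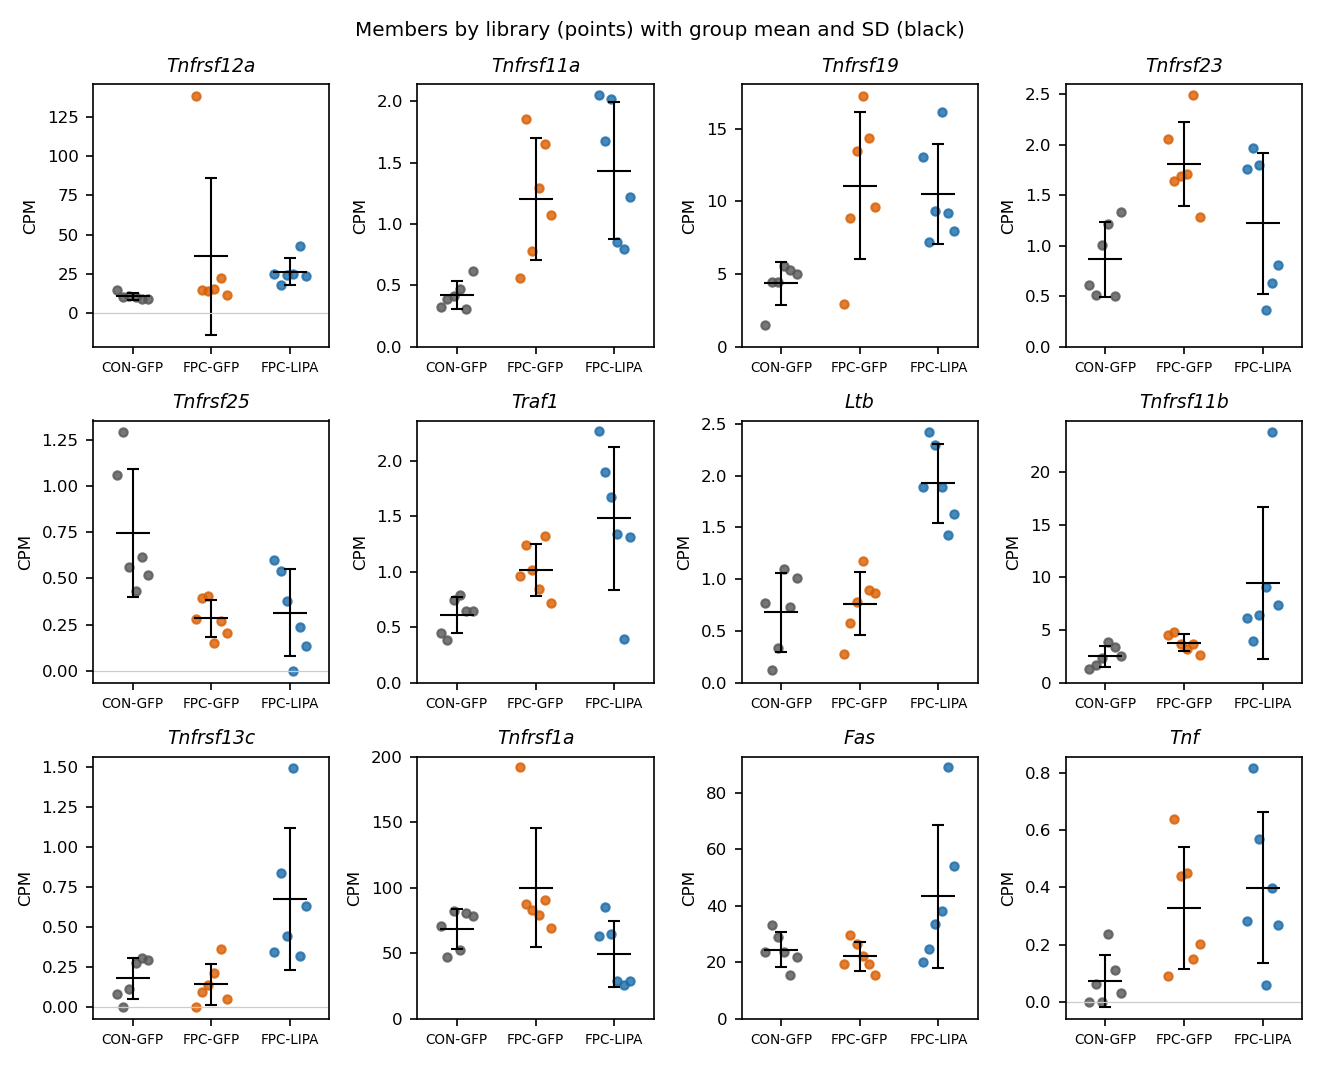
CPM of 12 members in each of the 18 livers (points), with the group mean and SD (black, n = 6). Ltb is higher in each FPC-LIPA liver (1.43 to 2.42) than in each other liver, and FPC-GFP mouse 11 stands apart for Tnfrsf12a (138) and Tnfrsf1a (192).

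Of the receptors of TNF itself, Tnfrsf1a was DE and lower for LIPA. Tnfrsf1a encodes TNF receptor 1, which is widely expressed and has a death domain. It stood at 47.1 to 82.5 CPM on the control diet (median 74.5), at 69.3 to 192 in FPC-GFP mice (median 85.2) and at 25.6 to 85.7 in FPC-LIPA mice (median 45.9). The FPC-LIPA livers fell into a low set, mice 36, 37 and 39 at 28.8, 25.6 and 28.8 CPM, and a set at 63.05 to 85.7. The FPC-GFP maximum was mouse 11, the same liver that stood apart for Tnfrsf12a, and the other 5 ran from 69.3 to 90.4. The LIPA log2 fold change was -1.01 ± 0.34 (edgeR adjusted p = 0.0460). Without FPC-LIPA 36, 37 and 39 it was -0.48 ± 0.28 (adjusted p = 0.388), and without FPC-GFP 11 it was -0.72 ± 0.31 (adjusted p = 0.114). The call was lost on leaving out each FPC-GFP liver and each of FPC-LIPA 36, 37 and 39, 9 of 12 fits, at adjusted p of 0.0594 to 0.114. The diet log2 fold change was 0.53 ± 0.23 (adjusted p = 0.100), and 0.25 ± 0.15 (adjusted p = 0.254) without FPC-GFP 11.

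Tnfrsf1b encodes TNF receptor 2, of immune and endothelial cells. Tnfrsf1b stood at 28.4 to 62.3 CPM across CON-GFP livers (median 39.1), at 27.6 to 35.1 across FPC-GFP livers (median 29.8) and at 11.1 to 32.3 across FPC-LIPA livers (median 23.9). Tnfrsf1b gave log2 fold changes of -0.46 ± 0.16 for the diet (edgeR adjusted p = 0.0557), -0.47 ± 0.24 for LIPA (adjusted p = 0.150) and -0.94 ± 0.28 for FPC-LIPA against CON-GFP (adjusted p = 0.0269). In the last, 5 of 6 FPC-LIPA livers were below each CON-GFP liver. The value without FPC-LIPA 36, 37 and 39 was -0.58 ± 0.23 (adjusted p = 0.110), and the call was lost without CON-GFP 1 or 3 or FPC-LIPA 36 alone, at adjusted p of up to 0.0638.

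Fas encodes the death receptor of Fas ligand. Levels of Fas spanned 15.5 to 33.4 CPM with a median of 23.7 on the control diet, 15.6 to 29.8 with a median of 20.8 in FPC-GFP mice, and 20.1 to 89.1 with a median of 36.0 in FPC-LIPA mice. The 3 highest livers were FPC-LIPA 37, 39 and 36, at 89.1, 54.1 and 38.3 CPM. The LIPA log2 fold change was 0.97 ± 0.31 (edgeR adjusted p = 0.0419), and 0.25 ± 0.21 (adjusted p = 0.539) without those 3. Leaving out 1 liver lost the call in 9 of 12 fits, at adjusted p of up to 0.0986 (without mouse 37, where the value was 0.62). The diet gave -0.15 ± 0.18 (adjusted p = 0.565).

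Tnfrsf13c encodes the BAFF receptor of B cells. Tnfrsf13c stood at 0 to 0.308 CPM across CON-GFP livers (median 0.194), at 0 to 0.360 across FPC-GFP livers (median 0.113) and at 0.318 to 1.49 across FPC-LIPA livers (median 0.537). In FPC-LIPA 4 of 6 livers were above each FPC-GFP liver. Tnfrsf13c passed the filter in the LIPA comparison alone. It did so mainly through the FPC-LIPA livers, with 4 to 49 counts per library against 0 to 12 in FPC-GFP. The LIPA log2 fold change was 2.22 ± 0.61 (edgeR adjusted p = 0.0257), on 27 counts over the FPC-GFP livers and 126 over the FPC-LIPA livers, so its size is imprecise. Without FPC-LIPA 36, 37 and 39 it was 1.88 ± 0.67 (adjusted p = 0.163). The call was lost when mouse 12, 13 or 20 of FPC-GFP or mouse 36 or 39 of FPC-LIPA was left out, at adjusted p of 0.0505 to 0.0681. B cell markers (10 genes led by Ighm and Cd79b) summed to 10.3 to 24.3 CPM in FPC-GFP and 19.0 to 49.8 in FPC-LIPA, and 5 of the 9 tested were DE and higher. Their part in the result was not tested. Cd27, a receptor of lymphocytes, had 21, 62 and 107 counts in the control, FPC-GFP and FPC-LIPA livers and a LIPA log2 fold change of 0.97 ± 0.50 (adjusted p = 0.161). Tnfrsf13b, another receptor of BAFF, gave 1.12 ± 0.52 (adjusted p = 0.119).

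Of the other receptors, Tnfrsf21 (death receptor 6) and Tnfrsf10b (the mouse TRAIL receptor) rose on the diet by less than 2-fold. The log2 fold change of Tnfrsf21 was 0.79 ± 0.16 (edgeR adjusted p = 0.00392), and all 6 FPC-GFP livers, at 6.22 to 8.82 CPM, were above each CON-GFP liver, at 2.51 to 5.12. That of Tnfrsf10b was 0.97 ± 0.32 (adjusted p = 0.0417), with 5 of 6 livers above. The call for Tnfrsf10b was lost on leaving out 1 liver in 10 of 12 fits, at adjusted p of up to 0.106. Neither passed the test for LIPA, at -0.28 ± 0.29 and 0.12 ± 0.39. Eda2r, Tnfrsf4 and Tnfrsf14 passed the test in no comparison.

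No adaptor was DE for the diet or for LIPA, by edgeR. At an unadjusted p under 0.05, 4 of 6 were higher for the diet (19.9% of all genes) and 3 of 6 lower for LIPA (16.8% of all genes). All 6 were higher in FPC-GFP than in CON-GFP by the fitted fold change, where 7329 of all 14307 genes were, and Traf6 only by 0.01. The adjusted p was under 0.05 for 3 of them, all under 2-fold, where 12.9% of all genes were higher at any fold change. Traf4, a TRAF known from epithelial cells, ran from 26.6 to 41.8 CPM in CON-GFP, from 51.1 to 60.7 in FPC-GFP and from 14.4 to 42.9 in FPC-LIPA. Each FPC-GFP liver was above each liver of the other groups, and the log2 fold change was 0.59 ± 0.11 for the diet (edgeR adjusted p = 0.00270) and -0.98 ± 0.24 for LIPA (adjusted p = 0.0192). Without FPC-LIPA 36, 37 and 39 the latter was -0.58 ± 0.13 (adjusted p = 0.0604). Traf3, a brake on noncanonical NF-kappaB signaling, gave 0.57 ± 0.20 for the diet (adjusted p = 0.0448) and -0.83 ± 0.33 for LIPA (adjusted p = 0.0782). The diet call of Traf3 was lost in 8 of 12 fits that left out 1 liver, at adjusted p of up to 0.102.

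Traf1 is a TRAF known as an NF-kappaB target. Levels of Traf1 spanned 0.387 to 0.788 CPM with a median of 0.648 on the control diet, 0.718 to 1.32 with a median of 0.991 in FPC-GFP mice, and 0.397 to 2.27 with a median of 1.504 in FPC-LIPA mice. In both FPC groups 5 of 6 livers were above each CON-GFP liver, and the FPC-LIPA exception was mouse 37, at 5 counts. Traf1 gave log2 fold changes of 0.71 ± 0.25 for the diet (edgeR adjusted p = 0.0482), 0.56 ± 0.34 for LIPA (adjusted p = 0.229) and 1.26 ± 0.36 for FPC-LIPA against CON-GFP (adjusted p = 0.0227). The last call was lost without CON-GFP 1 or FPC-LIPA 31, at adjusted p of 0.0572 and 0.0515, and that for the diet without any 1 of 11 of the 12 livers, at up to 0.112.

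Traf2, the main adaptor of the TNF receptors, did not pass the test. Traf2 stood at 7.73 to 13.9 CPM across CON-GFP livers (median 13.2), at 11.4 to 14.9 across FPC-GFP livers (median 14.0) and at 10.2 to 18.4 across FPC-LIPA livers (median 12.0). The groups overlapped, and the log2 fold change was 0.15 ± 0.14 for the diet (edgeR adjusted p = 0.427) and -0.07 ± 0.17 for LIPA (adjusted p = 0.791). Traf5 and Traf6, which act at lymphocyte receptors and at interleukin 1 and Toll-like receptors, gave diet values of 0.64 ± 0.23 (adjusted p = 0.0600) and 0.01 ± 0.15 (adjusted p = 0.961). Their LIPA values were -0.07 ± 0.22 (adjusted p = 0.824) and -0.64 ± 0.23 (adjusted p = 0.0600).

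Several of the LIPA differences above moved with the share of counts in ribosomal protein genes. FPC-LIPA 36, 37 and 39, at 6.21% to 7.93%, were the 3 lowest FPC-LIPA livers for Tnfrsf1a (25.6 to 28.8 CPM), Traf4 (14.4 to 26.8), Traf3 (2.95 to 7.04) and Traf6 (6.68 to 8.34). The same livers were the 3 highest for Fas (38.3 to 89.1), Tnfsf10 (8.21 to 10.6) and Tnfrsf11b (7.41 to 23.7). They were also the 3 lowest FPC-LIPA livers for Ltb, at 1.429 to 1.886 CPM against 1.890 to 2.418 in FPC-LIPA 31, 33 and 34, and still above each FPC-GFP and CON-GFP liver. Without the 3 livers no member was DE for LIPA in either direction by edgeR. At an unadjusted p under 0.05, 6 of 35 members tested were then higher and 1 lower (10.9% and 7.55% of all genes), and 116 of all 15246 genes tested were DE, as against 1671 of 14620 with the 3 livers. The part of the ribosomal share in these results was not tested.

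**Figure D4:**
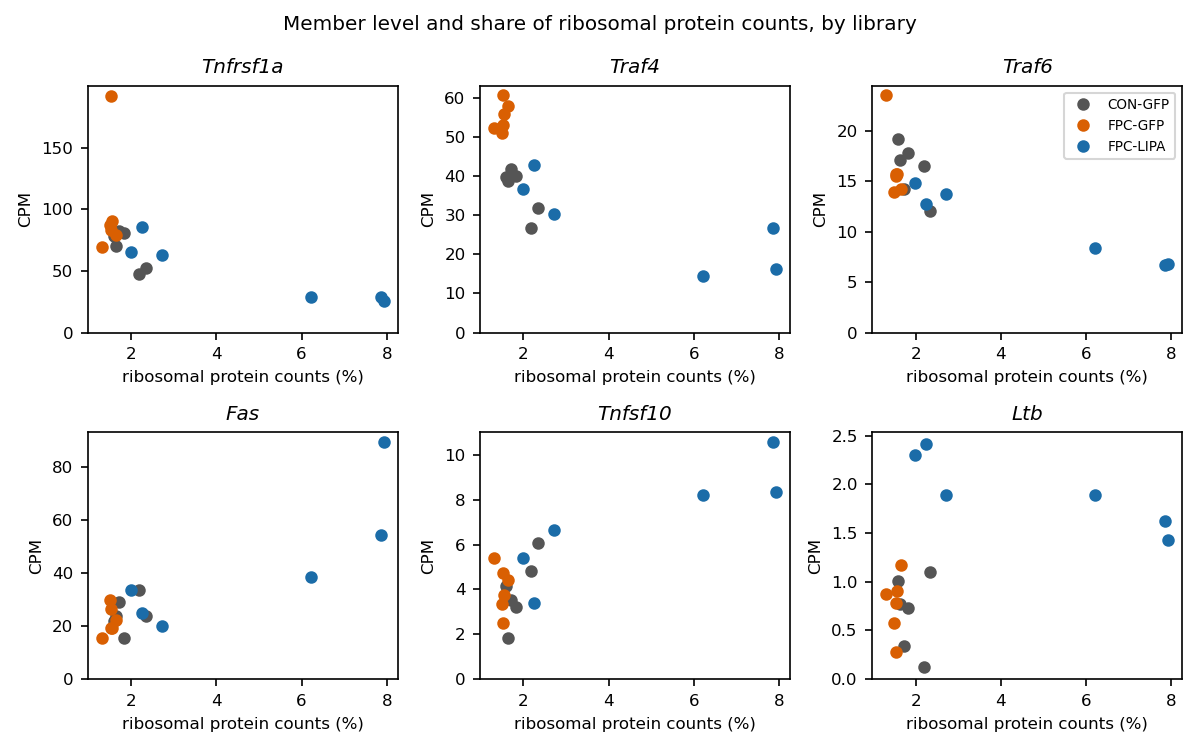
CPM of 6 members against the share of counts in 80 ribosomal protein genes, 1 point per liver, colored by group. The FPC-LIPA livers at 6.21% to 7.93% are the 3 lowest of their group for Tnfrsf1a, Traf4, Traf6 and Ltb and the 3 highest for Fas and Tnfsf10.

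Genes that act below the receptors were counted from 3 lists. Of 26 genes of death receptor and TNF receptor signaling, all tested, 2 were DE and higher for the diet and none lower by edgeR (4.76% and 2.44% of all genes). At an unadjusted p under 0.05, 5 were higher and 2 lower (19.9% and 18.2% of all genes). The 2 DE genes were Mlkl, which encodes the executor of necroptosis, at 1.14 ± 0.16 on the log2 scale (edgeR adjusted p = 0.000349), and Ripk3, its kinase, at 1.11 ± 0.25 (adjusted p = 0.00618). The median of the list was -0.01. For LIPA, 1 gene of the list was DE and lower (1.11% of all genes) and none higher (10.3% of all genes). The DE gene was Map3k5 (ASK1, a stress kinase), at -1.07 ± 0.24 (edgeR adjusted p = 0.0152). The LIPA median was -0.15, and 1 gene was higher at an unadjusted p under 0.05 (23.1% of all genes). Without FPC-LIPA 36, 37 and 39 Map3k5 was at -0.91 ± 0.26 (adjusted p = 0.103) and not DE. Its gene with the highest mean level was Xiap, an inhibitor of caspases, at a mean of 78.0 CPM over the 18 livers, and it did not pass the test for diet (adjusted p = 0.0708) or LIPA (adjusted p = 0.307).

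Of the 14 genes of NF-kappaB subunits, kinases and inhibitors, none was DE for the diet or for LIPA by edgeR's or DESeq2's test. At an unadjusted p under 0.05 by edgeR, 7 were higher and 2 lower for the diet, where 19.9% of all genes were higher and 18.2% lower. For LIPA 1 was higher and 3 lower, where 23.1% and 16.8% of all genes were. At any fold change 4 were higher for the diet (12.9% of all genes) and none lower (10.9%). For LIPA 1 was higher at any fold change (14.4% of all genes) and 2 lower (6.87%). The medians were 0.28 and -0.20. In FPC-LIPA against CON-GFP, 1 gene of this list was DE and higher, where 11.8% of all genes were. It was Nfkbie, an inhibitor of NF-kappaB, at 1.28 ± 0.25 on the log2 scale (edgeR adjusted p = 0.00273). Of the first list, Ripk3 was DE there at 1.58 ± 0.34 (adjusted p = 0.00454), Map3k5 at -1.33 ± 0.25 (adjusted p = 0.00189) and Tnfaip3, the feedback inhibitor A20, at 1.06 ± 0.28 (adjusted p = 0.0158). Chuk, a kinase of the inhibitors, had the highest mean level of the second list, 124 CPM, and gave -0.29 ± 0.13 for the diet (adjusted p = 0.122).

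Of 7 superfamily genes that the choice by symbol leaves out, 5 were tested. Cd40, a receptor of B cells and macrophages, was DE and higher for LIPA, at 0.872 ± 0.250 CPM in FPC-GFP and 3.19 ± 1.47 in FPC-LIPA (SD, n = 6), or 1.86 ± 0.35 on the log2 scale (edgeR adjusted p = 0.0110). For the diet it gave 0.64 ± 0.36 (adjusted p = 0.198). The LIPA call was lost without FPC-LIPA 36, 37 and 39, at 1.48 ± 0.36 (adjusted p = 0.0673). Among the libraries with sheet numbers 55 to 68 (the number after S in their descriptions) it was 1.71 ± 0.34 (adjusted p = 0.0483), still DE, and against CON-GFP it was 2.48 ± 0.43 (adjusted p = 0.00109). Traf7, the highest of the 7 at a mean of 15.7 CPM, passed the test in no comparison.

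Summed markers of other liver cells differed between the groups, for some lists through a few genes only. Kupffer cell markers (10 genes led by Cd5l and Clec4f) summed to 168 to 348 CPM in CON-GFP, 501 to 835 in FPC-GFP and 600 to 1281 in FPC-LIPA, and all 10 were DE and higher for the diet. Monocyte and macrophage markers (10 genes led by Lyz2 and Csf1r) summed to 54.3 to 124 CPM, 155 to 403 and 487 to 784 in the same order, with 8 DE and higher for the diet and 6 for LIPA. Lyz2 made up most of these sums, at means of 49.6, 136 and 500 CPM. For LIPA 9 of the 10 were higher by the fitted fold change. Csf1r was lower, at -0.13 ± 0.37 (edgeR adjusted p = 0.808). B cell markers in CON-GFP summed to 9.21 to 23.9 CPM. NK cell markers (9 genes led by Klrk1 and Gzma) summed to 1.87 to 4.61, 1.93 to 4.62 and 4.91 to 15.7 CPM. Neutrophil markers (9 genes led by Csf3r and S100a9) summed to 1.91 to 4.41, 2.77 to 5.94 and 7.34 to 20.6 CPM, with each FPC-LIPA liver above each other liver. Of the 3 tested, S100a8 (log2 fold change 2.90 ± 0.70, edgeR adjusted p = 0.0183) and S100a9 (2.63 ± 0.44, adjusted p = 0.00954) were DE and higher for LIPA. Csf3r, the other gene tested, did not pass the test, at 0.55 ± 0.45 (edgeR adjusted p = 0.372). Ly6g was at 0 in the CON-GFP and FPC-LIPA libraries and Mpo in FPC-GFP. Endothelial markers (8 genes led by Clec4g and Stab2) summed to 145 to 227, 202 to 255 and 238 to 357 CPM, and cholangiocyte markers (6 genes led by Spp1 and Sox9) to 28.1 to 47.1, 41.6 to 107 and 38.3 to 211. Spp1 made up most of the cholangiocyte sums, at means of 31.6, 61.4 and 78.8 CPM, and Sox9 stood at 2.68, 2.61 and 2.69. Of the 5 cholangiocyte markers tested, none was DE for the diet or LIPA, and 1, Spp1, passed the adjusted p for the diet under 2-fold. Plasmacytoid dendritic cell markers (6 genes led by Bst2 and Ly6d) summed to 162 to 211, 240 to 383 and 249 to 435 CPM. Bst2, at means of 172, 229 and 222 CPM, and Ly6d, at 4.32, 63.1 and 92.6, made up most of these sums. Siglech stood at 0.465, 0.215 and 1.23 CPM and was not tested for the diet. Of the 4 tested for the diet, 3 were higher by the fitted fold change and Tcf4 was lower, at -0.16 ± 0.17 (edgeR adjusted p = 0.493). The part of these cells in the changes of Tnfrsf11a, Ltb and the other members was not tested.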

How the data were processed

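RNA-seq of 18 mouse livers was analysed from raw read counts per gene as deposited. The authors trimmed reads (Trimmomatic), aligned them with HISAT2 2.1.0 to GRCm38 (mm10) and counted them per gene with featureCounts of Subread. TruSeq kits with and without strand are both named for these libraries, so strand is unknown and reads of a gene and an antisense partner cannot be told apart. Of the 23 columns of counts, 5 belong to none of these samples and were not used.

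Members were taken by symbol. The members, the lists and the tests were chosen with earlier results of these data known. Each comparison was fitted on its own 12 libraries with edgeR 4.0.16 in R 4.3.3 (filterByExpr, TMM scaling, glmQLFit and glmQLFTest, Benjamini-Hochberg over all genes tested). DE means changed 2-fold or more with an adjusted p below 0.05, the thresholds of the study, and "adjusted p at any fold" drops the first. Errors of fold changes are standard errors from the F statistic, and CPM is scaled by TMM over the 18 libraries. The total counts, 16632146 to 37739301 per library, set the precision. Gene length is the union of GENCODE M21 exons. Every member is accounted for. Values by group are given for members DE in any comparison and, whatever they showed, for Tnf, Tnfrsf1a, Tnfrsf1b, Fas, Ltbr, Tnfsf10, Tnfrsf12a and Traf2, and fold changes for members past the adjusted p under 2-fold. Of the pathway lists the rule names the DE genes with the 3 largest changes per comparison and the gene of highest level. The values of the other members, and the promoters shown, were chosen after their values were seen. In counts simulated from the libraries, 194 of 200 genes changed 4-fold were recovered for the diet comparison (14307 genes) and 182 of 200 for the LIPA comparison (14620 genes). In the same order, 2 and 11 unchanged genes were called. Changes under 4-fold, and changes in genes of the lowest levels, were not simulated. DESeq2 1.42.0, other scalings and filters, leaving out each library and the libraries with sheet numbers 55 to 68 (the number after S in a library's description, whose meaning is not given in the sources used here) were the alternatives. P-values measure the spread between these mice.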

Additional observations from a re-analysis of the deposited data

Results flagged for a closer look

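In 48 groups of 6 livers, the highest or lowest value was set against the other 5, and 7 stood apart by Dixon's criterion, where chance gives about 1 in 20 groups. FPC-GFP mouse 11 had 138 CPM of Tnfrsf12a and 192 CPM of Tnfrsf1a. FPC-LIPA mouse 37 had 46.4 CPM of Ltbr, 23.7 of Tnfrsf11b and 42.8 of Tnfrsf12a. CON-GFP mouse 1 had 14.7 CPM of Tnfrsf12a and 1.51 of Tnfrsf19. Of these 3 livers, FPC-LIPA 37 had ribosomal protein genes at 7.93% of counts, and FPC-GFP 11 and CON-GFP 1 at 1.53% and 1.64%.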

How the results depend on the processing

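For the diet, members DE and higher numbered 4, and 2 among sheet numbers 55 to 68, 9 at any fold change and 1 at an adjusted p under 0.01, with 2 to 5 on leaving out each library. The 2 among sheet numbers 55 to 68 were Tnfrsf11a and Tnfrsf10b, and Tnfrsf10b was not among the 4. Tnfrsf12a, Tnfrsf19 and Tnfrsf23 lost the call there. Members DE and lower numbered 1, and 0 with at least 1 CPM in 6 libraries, with all 18 libraries in one fit, among sheet numbers 55 to 68 and at an adjusted p under 0.01. For LIPA, members DE and higher numbered 3, and 0 among sheet numbers 55 to 68, without FPC-LIPA 36, 37 and 39 and at an adjusted p under 0.01, and 5 at any fold change, with 1 to 6 on leaving out each library. Members DE and lower numbered 1, and 0 with at least 1 CPM in 6 libraries, among sheet numbers 55 to 68, without FPC-LIPA 36, 37 and 39 and at an adjusted p under 0.01, and 2 with no filter or at any fold change, with 0 to 3 on leaving out each library. For FPC-LIPA against CON-GFP, members DE and higher numbered 6, and 10 with all 18 libraries in one fit. Members DE and lower numbered 0, with 1 at any fold change and 0 to 1 on leaving out each library. The causes were not tested, except that stricter filters test fewer genes and the sheet numbers fewer libraries.

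Log2 fold changes that changed sign belonged to uncalled genes. Among sheet numbers 55 to 68 the diet values were 0.054 (Fas), -0.10 (Ltb), -0.023 (Ltbr) and -0.18 (Tnfsf10). With library size alone Fas was at 0.058. With the length trend removed, Tnfsf10 was at -0.059 for the diet and Tnfrsf19 and Traf2 at 0.014 and 0.012 for LIPA. Without FPC-LIPA 36, 37 and 39, Tnfrsf23 was at 0.030 and Traf2 at 0.11 for LIPA, and Tnfrsf1a at 0.056 against CON-GFP. Leaving out each library gave diet ranges of -0.058 to 0.29 (Ltb), -0.0012 to 0.089 (Ltbr) and -0.13 to 0.18 (Tnfsf10). For LIPA it gave -0.64 to 0.74 (Tnfrsf12a) and -0.28 to 0.094 (Tnfrsf19), and for FPC-LIPA against CON-GFP -0.080 to 0.13 (Traf2). Of 901 gene values under alternatives, 816 kept direction and side of the threshold, 50 lost the call, 8 gained it and 27 changed sign. Over all genes, 1030 were DE for the diet, 681 of them higher, and with library size alone 1279, of them 1054 higher. For LIPA 1671 were DE, with 1016 for library size alone, 96 among sheet numbers 55 to 68, 116 without FPC-LIPA 36, 37 and 39 and 856 to 2612 on leaving out each library, where the ends are those without FPC-LIPA 36 and 33. For FPC-LIPA against CON-GFP 2176 were DE, and 1107 among sheet numbers 55 to 68. Library size alone moved the median of all genes by 0.20 for the diet and -0.13 for LIPA. No paired analysis was possible because the groups compared share no replicate numbers. Depth limits Tnf and the other untested members.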
